A study of Arabidopsis thaliana with 18 samples.

Results

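The mRNAs described here are the abundant nuclear mRNAs of Arabidopsis seedlings that were best loaded with ribosomes in wild type, and the question asked of them is what became of that loading in rpl24b. Loading was measured as translation state (TL), the log2 signal of polysomal RNA (PL) minus the log2 signal of nonpolysomal RNA (NP) from the same plant sample, where NP includes monosomes. A probe set of the array was eligible if its mean signal in wild-type (WT) total RNA (TC) was at least 7 on the log2 scale and it was not annotated to a plastid or mitochondrial gene, a ribosomal protein or a histone. Of 22746 probe sets, 6003 reached the floor, 55 organellar, 233 r-protein and 14 histone probe sets were left out, and 5701 were eligible. The 150 with the highest mean WT TL are the members, and the other 5551 eligible probe sets are what they are set beside. Annotation could be applied only where a probe set had one, and 82 of the 150 members had none in the sources used here. Of the 68 annotated members, 64 matched 1 locus and 4 matched several. Above the 150th place, 8 r-protein and 2 histone probe sets had been passed over by the rule.

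Ribosomes that initiate one after another on an mRNA carry it into the heavy part of a sucrose gradient, while mRNAs that are silent or hold a single ribosome stay in the light part. The share of an mRNA held in polysomes is known to change with light and with stress, also where the amount of the mRNA stays the same. RPL24B encodes a protein of the large cytosolic ribosomal subunit, and plants that lack it still make protein with the remaining RPL24 genes.

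The mutant group carried the rpl24b allele stv1-1 in the Ws ecotype and was set beside wild type grown at the same times. Per the study's methods, the mutant also lacks several genes next to RPL24B and holds a transgene that expresses the small MYB protein CAPRICE at that place. The methods give wild-type plants as Columbia and elsewhere as the corresponding wild type, and the labels name no WT ecotype, so strain and mutation cannot be told apart if the strains differed. Aerial parts of seedlings aged 10 to 12 days were collected 6 h after the lights came on per the labels, while the study's discussion gives an earlier hour. The plants had grown on agar with 1% sucrose at 22 °C, under a day of 16 h light and 8 h dark. Each genotype had 3 plant samples, grown at different times, and each sample gave a TC, a PL and an NP array, hence 18 ATH1 arrays.

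RPL24B averaged 3.62 ± 0.17 in rpl24b and 10.12 ± 0.14 in WT on the log2 TC scale, and CPC, the CAPRICE gene, averaged 10.71 ± 0.29 in rpl24b and 3.32 ± 0.10 in WT (SD, n = 3 each). RCA, the nuclear gene of the Rubisco activase of chloroplasts and a marker of green tissue, had 13.94 ± 0.05 in rpl24b and 13.92 ± 0.01 in WT. Of 32 marker genes listed for green, epidermal, guard, vascular, dividing, root and seed cells, 6 could be found by name. Of the 2 epidermal ones, CER1 had 6.93 in rpl24b and 8.73 in WT on its brighter probe set, and FDH had 10.50 in rpl24b and 9.78 in WT. The division marker CYCB1;1 had 6.47 in rpl24b and 5.28 in WT, the guard cell marker FMA had 5.85 in rpl24b and 6.00 in WT, and the seed marker CRA1 had 5.66 in rpl24b and 4.96 in WT. The part of these shifts in the results below was not tested. In WT, the NP array of sample 2 had a median signal of 4.65, against 4.90 to 5.07 on the other PL and NP arrays. Over the other eligible probe sets the NP median was 7.41 in that sample, against 7.50 and 7.45 in WT samples 1 and 3.

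The members lay well above the other mRNAs in every sample. In rpl24b, their median TL was 1.91, 1.85 and 1.67 in samples 1 to 3, and that of the other eligible probe sets was 0.16, 0.13 and 0.15. In WT, where the values chose the members, the medians were 1.77, 2.07 and 1.85 for members and 0.13, 0.19 and 0.16 for the others. Sample 3 of rpl24b was the low one, since 88 of the 150 members had their lowest rpl24b TL there. Sample 2 of WT was the high one and held the highest WT value of 92 members. Member signals were 8.54 in PL and 6.72 in NP in rpl24b, and 8.60 in PL and 6.65 in NP in WT, as medians over members of the mean of 3 samples. The other eligible probe sets had medians of 7.50 in PL and 7.39 in NP in rpl24b, and 7.52 in PL and 7.45 in NP in WT. Members were therefore brighter in the polysomal fraction and dimmer in the nonpolysomal one. Their TC signals were 8.49 in rpl24b and 8.51 in WT, against 7.95 in rpl24b and 7.97 in WT for the others.

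**Figure D1:**
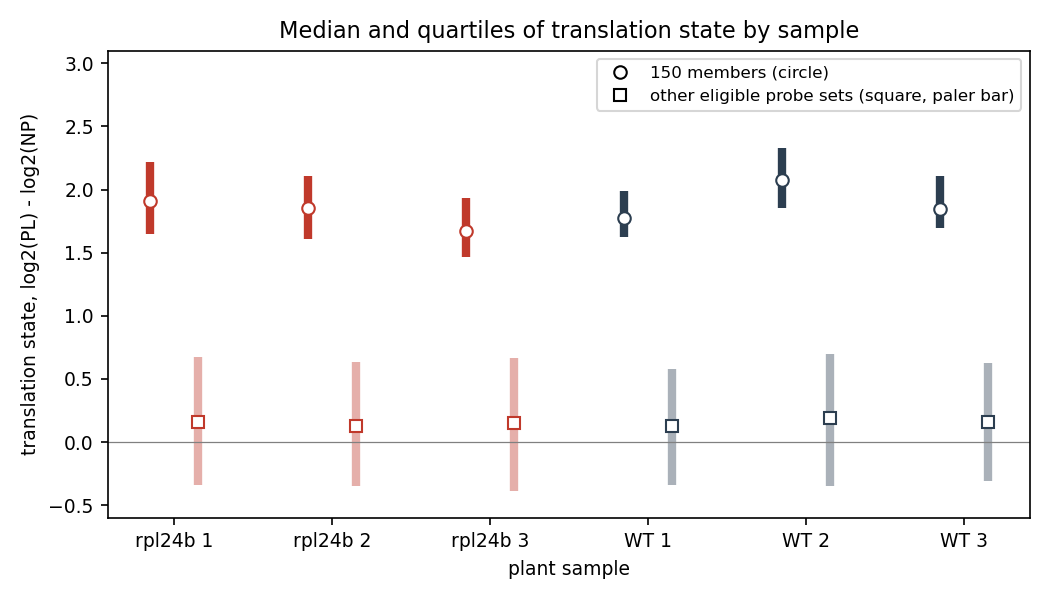
Translation state (log2 PL minus log2 NP) in the 3 rpl24b and 3 WT plant samples, with symbols for the median and bars between the quartiles, for the 150 members and the 5551 other eligible probe sets. The member medians lay between 1.67 and 1.91 in rpl24b and between 1.77 and 2.07 in WT, and the others lay near 0 in both.

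The choice left no gap at its edge. The mean WT TL was 1.66, 1.65 and 1.65 for the members in places 148 to 150, and it was 1.64 for each of the 3 probe sets just outside. The spread of single WT samples, with a median SD of 0.22 over members, was wider than these steps. The top of the list stood further apart, since the mean WT TL spanned 3.90 at the first place to 1.65 at the last.

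The best-loaded mRNA of all came from AT1G64370, a locus with no functional name in the annotation used. Its TL was 3.91, 3.95 and 3.02 in rpl24b, against 3.68, 4.27 and 3.77 in WT. It kept the first place in rpl24b. The second place belonged to RAB18, an abscisic acid-responsive dehydrin, which is a small hydrophilic protein made when cells lose water. RAB18 had a TL of 3.104, 3.225 and 2.809 in rpl24b, against 2.984, 4.211 and 3.817 in WT, and the 2 groups overlapped. AT4G19200 held place 3 in both genotypes with 2.93, 2.85 and 2.37 in rpl24b and 2.71, 3.25 and 3.03 in WT. These 3 mRNAs therefore headed the order in both genotypes.

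Others near the top stood lower in the rpl24b order, which an order set by WT TL favours in any other sample. AT4G34290, in place 4 in WT, had 2.37, 2.52 and 1.70 in rpl24b and 2.72, 3.02 and 2.89 in WT, and it took place 16 in rpl24b. AT5G45350, in place 6 in WT, had 2.42, 2.29 and 1.57 in rpl24b and 2.72, 3.08 and 2.73 in WT, and it took place 31 in rpl24b. For both mRNAs every rpl24b value lay below every WT value, as it did for 12.8% of the other eligible probe sets. Neither passed in TL (limma adjusted p = 0.21 and 0.18). The remaining single-locus members with the highest WT values were AT1G18210, AT1G04800, AT4G28440 and AT5G01750, with mean TL between 1.93 and 2.20 in rpl24b and between 2.17 and 2.49 in WT, and their groups overlapped.

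The 3 dehydrin probe sets found by name among eligible mRNAs, those of RAB18, COR47 and AT1G54410, were all members. A dehydrin without such a name in the sources would be missed. COR47, a dehydrin of the cold response, had a TL of 2.24, 2.29 and 1.64 in rpl24b and 2.32, 2.15 and 2.07 in WT. AT1G54410 encodes the small dehydrin HIRD11 and was one of the most abundant members, with TC of 11.27 in rpl24b and 11.01 in WT. Its TL was 1.65, 1.84 and 1.08 in rpl24b and 2.20, 2.12 and 2.0 in WT. High WT loading was the condition for being a member, and the rpl24b means of these 3 mRNAs ranged between 1.52 and 3.05.

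Among the redox enzymes, PRXIIF encodes a mitochondrial peroxiredoxin that removes peroxides, and TRXF2 encodes an f-type thioredoxin that passes reducing power to chloroplast enzymes. PRXIIF had a TL of 2.09, 1.81 and 1.94 in rpl24b and 1.69, 2.21 and 1.84 in WT. TRXF2 had 1.76, 1.94 and 1.54 in rpl24b and 2.23, 1.87 and 1.84 in WT. A probe set shared by the glutathione S-transferase genes GSTF6 and GSTF7, whose enzymes attach glutathione to reactive compounds, had 2.27, 1.96 and 1.65 in rpl24b and 1.88, 2.66 and 2.33 in WT. All 3 were among the 150 best-loaded mRNAs in rpl24b as well. No peroxiredoxin other than PRXIIF was found by name among eligible probe sets, and one without such a name in the sources would be missed. The 4 other eligible thioredoxins found by name had mean TL of 0.11 to 1.43 in rpl24b and 0.12 to 1.35 in WT. The 5 other eligible glutathione S-transferases found by name had -0.80 to 1.59 in rpl24b and -0.85 to 1.35 in WT.

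The 6 probe sets grouped as defence proteins and inhibitors had mean TL of 0.095 to 1.89 in rpl24b and 1.88 to 2.85 in WT. The group was formed by hand, while the functional classes used below placed AT4G22490 under lipid metabolism and transfer and AT3G16670 under cell wall. DR4, a Kunitz-type inhibitor named for its repression by drought, was in place 5 in WT. Its TL was 1.38, 1.29 and 1.86 in rpl24b and 2.45, 3.17 and 2.91 in WT. CYS1, a cystatin that blocks cysteine proteases, had 1.64, 1.78 and 0.92 in rpl24b and 2.38, 2.80 and 1.85 in WT. ATLP-1, a thaumatin-like protein, averaged 1.886 in rpl24b and 1.901 in WT. AT4G22490, of the superfamily of protease inhibitors and lipid-transfer proteins, had 1.69, 2.01 and 1.54 in rpl24b and 1.80, 1.85 and 2.095 in WT. AT3G16670, of the Ole e 1 and extensin family, averaged 1.76 in rpl24b and 2.15 in WT. The thionin AT1G66100, a small antimicrobial peptide precursor, belongs with the transcripts that were nearly lost in the mutant and is described with them.

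Some members encode proteins of organelles that are made in the cytosol. CLPP4, a subunit of the chloroplast Clp protease, had a TL of 2.215, 2.131 and 1.822 in rpl24b and 2.083, 2.002 and 1.760 in WT. The 2 other Clp family probe sets found by name among eligible ones, those of CLPR4 and NCLPP7, had mean TL of 0.11 and 0.21 in rpl24b and of -0.37 and -0.01 in WT. GSA1, glutamate-1-semialdehyde aminomutase of chlorophyll synthesis, had 1.38, 1.28 and 1.45 in rpl24b and 1.42, 1.42 and 2.50 in WT. Its place in the list rested on WT sample 3, the only value above 2. The 6 other eligible genes of chlorophyll synthesis found by name had mean TL of -0.52 to 2.12 in rpl24b and -0.48 to 1.55 in WT. The iron-sulfur scaffold ISU1 and a probe set shared by AT4G22240 and FIB, whose fibrillins coat plastoglobules, averaged 1.78 and 1.74 in rpl24b and 1.88 and 1.67 in WT.

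Of the other named members, NAI2, needed for the ER bodies that store beta-glucosidases, had 2.50, 2.15 and 2.38 in rpl24b and 1.96, 2.09 and 2.18 in WT. Its groups overlapped, and it held place 9 in rpl24b and place 38 in WT. Its PL signals were 6.30 in rpl24b and 7.11 in WT, and its NP signals were dim, at 3.95 in rpl24b and 5.04 in WT. The exon junction protein Y14 had 1.73, 1.44 and 1.32 in rpl24b and 1.75, 1.87 and 2.22 in WT. TIL, a temperature-induced lipocalin, averaged 1.70 in rpl24b and 1.87 in WT, and BGLU33, a beta-glucosidase, averaged 1.40 in rpl24b and 1.70 in WT. AT1G28400, among the 5 single-locus members best loaded in rpl24b, averaged 2.20 in rpl24b and 2.08 in WT. At the low end, AT5G51890 and AT4G29030 averaged 1.19 and 1.13 in rpl24b, against 1.91 and 1.87 in WT.

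Functional classes could be given to few probe sets, so they describe little of the list. Of the 5701 eligible probe sets 2970 were annotated, and symbols and short descriptions placed 390 in 20 functional classes. Of these 390, 9 were members, which is 2.31% and near the 2.63% for all eligible probe sets. Light reactions of photosynthesis contributed 0 of 15 probe sets, glycolysis and sugar metabolism 0 of 26, secondary metabolism 0 of 29, membrane transport 0 of 24, and transcription factors and chromatin 0 of 20, classes so small that the share of all eligible probe sets amounts to less than 1 member in each. The redox class had 3 of 34, and proteolysis and ubiquitin had 1 of 59. Median TL of the light-reaction class was 0.71 in rpl24b and 0.51 in WT, high among the classes yet far below the members. RAB18 and CYS1 fell into classes of vesicle traffic and of amino acid metabolism through their symbols alone, and neither belongs there.

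In the mutant, the members remained among the best-loaded mRNAs. With limma, TL in the 3 rpl24b samples was above 0 at an adjusted p under 0.05 for 148 of the 150 members (98.7%). The same call was reached by 39.0% of the other eligible probe sets and 19.7% of all probe sets, and TL of 0 means only equal normalized signal in the 2 fractions. The exceptions were AT1G66100 and AT2G33850. Of the members, 101 (67.3%) were also among the 150 best-loaded eligible mRNAs of rpl24b, where 2.63% of all eligible probe sets have such a place, and 146 (97.3%) were in the highest 10.0%, which held 570 probe sets. The other 49 places in rpl24b went to mRNAs outside the list. Mean rpl24b TL was above 1 for 147 members and for 12.1% of the other eligible probe sets. Annotated and unannotated members had nearly the same median of mean TL, at 1.79 for both in rpl24b, and at 1.92 and 1.81 in WT.

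**Figure D2:**
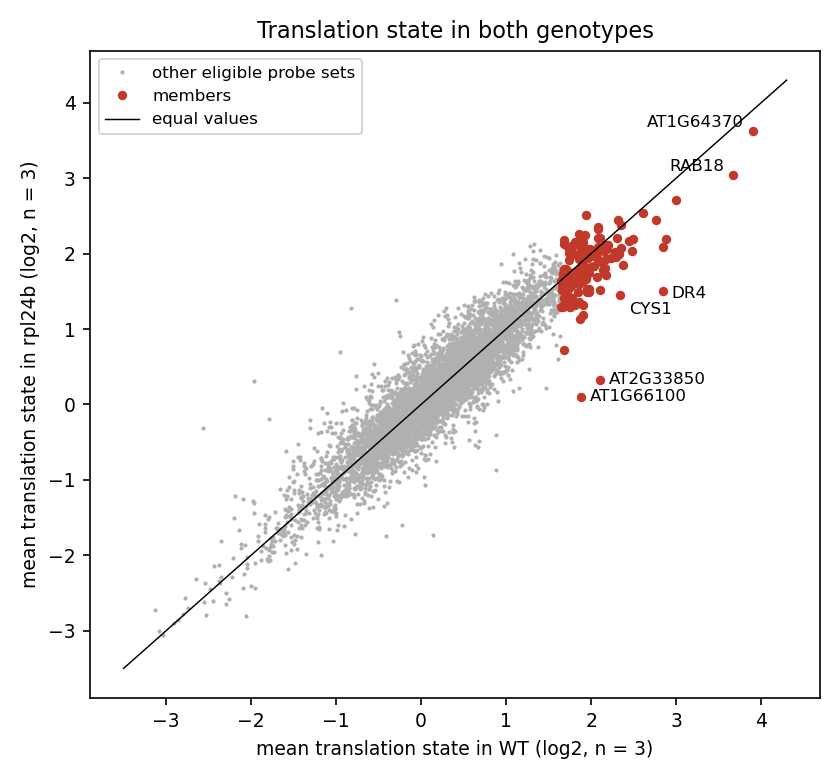
Mean translation state (log2, n = 3) in rpl24b against WT for members (red) and the other eligible probe sets (grey), with the line of equal values. Most members followed the line, and 3 named ones, DR4, AT2G33850 and AT1G66100, lay more than 1 log2 unit below it.

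A list picked for high WT values tends to read lower in any sample that did not pick it, so the mutant was also set beside a WT sample held back from the choice. Choosing 150 probe sets on WT samples 2 and 3 gave medians of 1.89, 1.83 and 1.66 in the 3 rpl24b samples and 1.74 in WT sample 1. With WT sample 2 held back, the medians were 1.9, 1.86 and 1.67 in rpl24b and 2.0005 in WT. With WT sample 3 held back, they were 1.8975, 1.835 and 1.642 in rpl24b and 1.82 in WT. Thus the held-back WT median lay inside the range of the rpl24b samples for WT samples 1 and 3, and above it for WT sample 2. With each array centred on its median, WT samples 1 and 3 again lay inside the range. WT sample 2 then had 1.75, below the rpl24b medians of 1.94, 1.94 and 1.80. The part of the lower NP array median of that sample was not tested. Of each 150 so chosen, the 150 highest of a single rpl24b sample shared between 73 and 99, and the 150 highest of the held-back WT sample shared 108, 101 and 112. These counts share samples and were not tested.

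**Figure D3:**
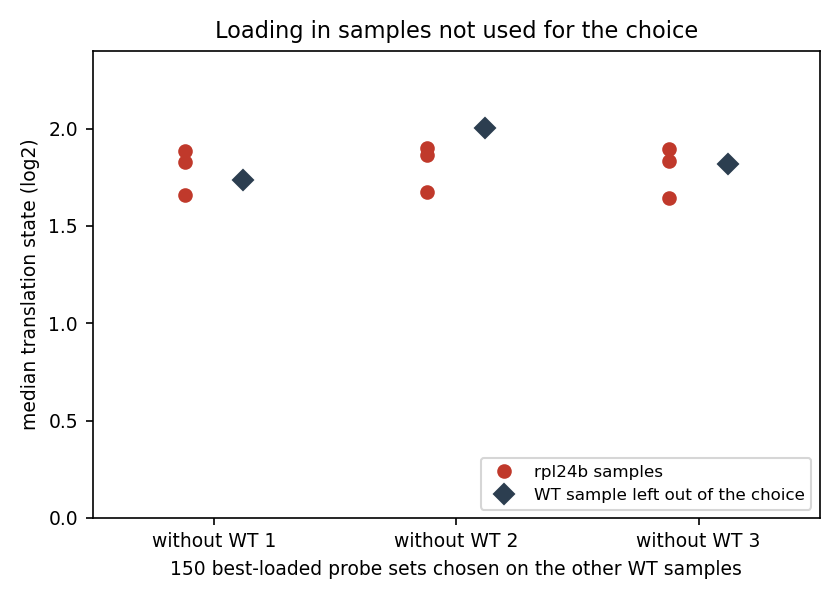
Median translation state (log2) of the 150 best-loaded probe sets chosen on 2 WT samples, in the 3 rpl24b samples (circles) and in the WT sample left out of the choice (diamond). The circles lay between 1.64 and 1.9 and the diamonds between 1.74 and 2.0005.

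Single members can be compared between genotypes only as a description, since their WT TL chose them. Mean TL was lower in rpl24b than in WT for 105 of the 150, and the median difference was -0.13, against -0.0047 for the other eligible probe sets. All 3 rpl24b values lay below all 3 WT values for 15 members (10.0%), as they did for 12.8% of the other eligible probe sets. They lay above for 7 members (4.67%), against 12.7% of the other eligible probe sets. In the limma fit of rpl24b against WT over all probe sets, 4 members (2.67%) were lower in TL and 0 were higher at an adjusted p under 0.05, while 0.448% of all probe sets were lower and 0.448% were higher. At an unadjusted p under 0.05, 17 members were lower and 4 were higher. The number lower after adjustment was 2 without rpl24b sample 1, rpl24b sample 2 or WT sample 3, and 7 when only probe sets at or above the floor were tested. The choice of members by high WT TL favours lower calls over higher ones, so nothing is read from these counts. The 4 were AT2G33850, AT1G66100, DR4 and 1 probe set without annotation. That probe set had 0.48, 0.85 and 0.83 in rpl24b and 1.88, 1.39 and 1.79 in WT, with NP signals of 6.32 in rpl24b and 4.90 in WT. The other 3 were also among the members whose transcripts fell most.

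Transcript level did not rank the members, but the floor was set on WT TC, which the other eligible probe sets had passed as well. The TC counts are therefore read beside theirs. Of the 150 members, 21 were higher and 26 were lower in rpl24b at an adjusted p under 0.05 in the limma fit, and 103 did not pass. Among the other eligible probe sets, 7.64% were higher and 16.1% were lower, and among all probe sets 8.4% were higher and 7.91% were lower. The share that was lower was thus near that of other abundant mRNAs, and the share that was higher was above it. Of the 26 that were lower, 6 had a mean TC below the floor in rpl24b and were eligible through WT alone. The number higher was 12 without rpl24b sample 1, 11 without rpl24b sample 3, 11 without WT sample 1 and 12 without WT sample 2. Without WT sample 2, 16 were lower. The share of the other eligible probe sets in these fits is not given here, so whether the members still exceeded it is not known. Of the annotated members 8 were higher and 19 were lower. The median TC change over members was 0.0048 on the log2 scale, against -0.06 for the other eligible probe sets. In bulk tissue, fewer cells of a type and less RNA per cell cannot be told apart.

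Among the members, 6 transcripts were at least 2-fold lower in rpl24b at an adjusted p under 0.05 and 1 was at least 2-fold higher, while 2.31% of the other eligible and 1.41% of all probe sets were lower and 0.883% of the other eligible and 1.49% of all probe sets were higher by that rule. The thionin AT1G66100 had TC of 3.21, 3.14 and 3.41 in rpl24b, against 9.71, 8.42 and 9.25 in WT, and was lower with a limma adjusted p of 4.58e-06. AT2G33850, annotated as an unknown protein, had TC of 3.79, 3.42 and 3.18 in rpl24b, against 7.17, 7.34 and 6.52 in WT, and was lower with a limma adjusted p of 2.86e-05. For both mRNAs the mean TC in rpl24b lay below 3.52, the lower quartile of all probe sets there, where a signal may hold little RNA, so the size of the fall is not given. AT1G66100 averaged 3.37 in PL and 3.28 in NP in rpl24b, and AT2G33850 averaged 3.64 in PL and 3.32 in NP, with lower quartiles of all probe sets at 3.25 in PL and 3.34 in NP. Their TL of -0.05, -0.21 and 0.54 for AT1G66100 and of 0.36, 0.04 and 0.56 for AT2G33850 in rpl24b therefore compares 2 dim signals. The WT TL values were 1.82, 2.12 and 1.69 for AT1G66100 and 2.30, 1.81 and 2.21 for AT2G33850.

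The other 4 large falls left TC signals above 6 in the mutant. DR4 had TC of 6.78, 6.03 and 6.62 in rpl24b, against 8.54, 8.17 and 8.79 in WT, a log2 change of -2.02 ± 0.22 (SE, limma adjusted p = 0.000561), and its lower TL has been given above. AT4G22490 had TC of 6.98, 7.26 and 6.92 in rpl24b, against 9.65, 9.26 and 9.38 in WT, a log2 change of -2.38 ± 0.14 (SE, limma adjusted p = 1.65e-05). Its TL values overlapped between genotypes, and it took place 124 in rpl24b. AT3G28220, of the TRAF-like family, had TC of 6.21, 6.07 and 6.23 in rpl24b, against 8.70, 8.61 and 8.59 in WT, with a log2 change of -2.46 ± 0.09 (SE, limma adjusted p = 1.54e-06). Its TL varied widely in rpl24b, at 1.43, 0.44 and 2.01, against 1.62, 1.88 and 1.76 in WT. RAB18 had TC of 6.06, 6.22 and 6.29 in rpl24b, against 8.00, 7.97 and 7.67 in WT, a log2 change of -1.69 ± 0.12 (SE, limma adjusted p = 5.78e-05). The NP signals of RAB18 were low in both genotypes, at 3.87 in rpl24b and 4.52 in WT, so the large TL of this dehydrin divides by a dim signal. DR4 and AT3G28220 had NP signals of 4.37 and 4.14 in rpl24b, against 5.69 and 6.25 in WT.

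The transcripts that rose included glutathione S-transferases and the dehydrin COR47. The shared probe set of GSTF6 and GSTF7 had TC of 9.40, 9.19 and 8.50 in rpl24b, against 7.69, 7.24 and 6.87 in WT, a log2 change of 1.76 ± 0.26 (SE, limma adjusted p = 0.00276), and the 2 genes cannot be separated on it. AT3G10020 rose by 0.97 ± 0.17, with TC of 9.04, 8.71 and 8.54 in rpl24b and 8.06, 7.82 and 7.49 in WT (SE, limma adjusted p = 0.00669). AT2G04520 had TC of 9.77, 9.80 and 9.71 in rpl24b and 8.98, 9.06 and 8.98 in WT (log2 change 0.75, limma adjusted p = 0.000909). COR47 had 10.18, 9.79 and 9.82 in rpl24b and 9.33, 9.37 and 8.93 in WT (log2 change 0.72, limma adjusted p = 0.0142). In these 4 cases every rpl24b value was above every WT value, which a choice by large rises that passed favours. The share of other probe sets with such TC values is not given here. AT3G54400 and AT3G52960 rose by 0.57 and 0.51 (limma adjusted p = 0.0311 and 0.0116), and the first lost its call in 4 of the fits that left out a sample. The locus number of AT3G52960 is close to that of RPL24B (AT3G53020), beside which the mutant lacks genes, and its TC was 9.71 in rpl24b and 9.21 in WT.

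**Figure D4:**
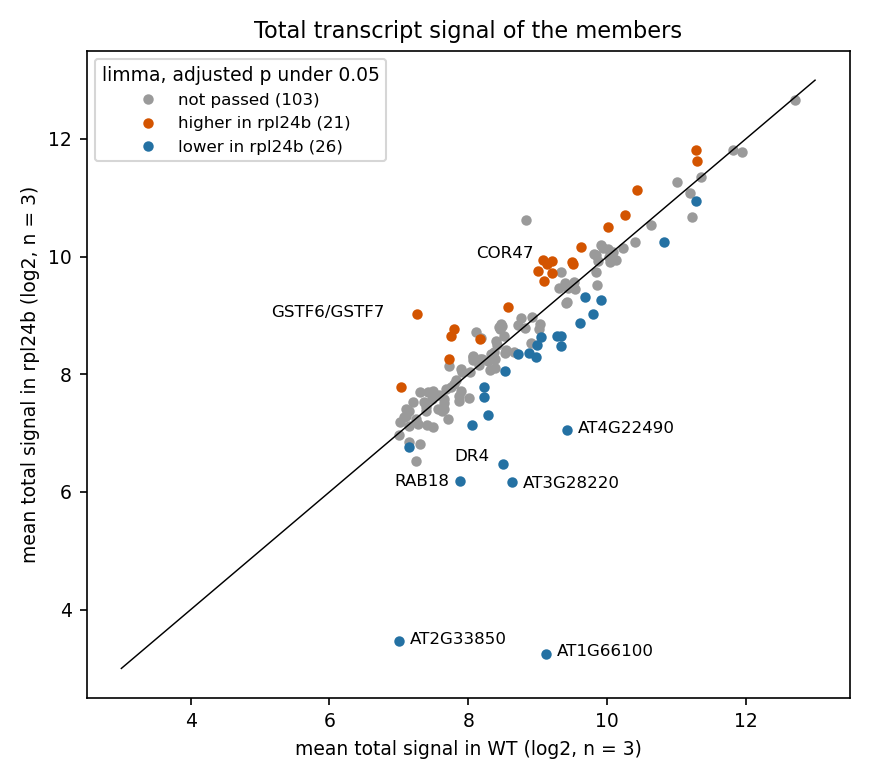
Mean total transcript signal (log2, n = 3) of the 150 members in rpl24b against WT, coloured by the limma call, with the line of equal values. AT1G66100 and AT2G33850 averaged 3.25 and 3.46 in rpl24b, against 9.13 and 7.01 in WT, while 103 members did not pass.

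By group, the dehydrins divided in transcript level, with 1 of 3 higher (COR47), 1 lower (RAB18) and 1 that did not pass (AT1G54410). Of the 3 probe sets named as redox enzymes, the shared one of GSTF6 and GSTF7 rose, TRXF2 fell and PRXIIF did not pass. The TC of PRXIIF was 8.63 in rpl24b and 8.19 in WT. Of the 6 probe sets grouped as defence proteins and inhibitors, 3 were lower (DR4, AT4G22490 and AT1G66100) and 0 were higher. Of the 4 for proteins of organelles, 2 were lower and 0 were higher. Both groups had the same counts at an unadjusted p under 0.05. At that unadjusted p, 2 of the 3 redox probe sets were higher and 3 of the 5 other named proteins were lower. Neither CLPP4, with 9.91 in rpl24b and 10.05 in WT, nor GSA1, with 8.38 in rpl24b and 8.37 in WT, passed. Of the 5 other named proteins, 1 was higher, the lipocalin TIL with 9.87 in rpl24b and 9.51 in WT, and 1 was lower, AT3G28220. The background for the small adjusted counts is the share of the other eligible probe sets, at 7.64% higher and 16.1% lower. Their share at the unadjusted p is not given here, so nothing is read from the unadjusted counts. The groups were formed after the names of the members had been seen.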

How the data were processed

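The authors deposited 1 table of log2 RMA signals for 18 ATH1 arrays, made with the affy package in Bioconductor per the labels, and 1 table of log2 translation states. RMA corrects background, equalizes distributions and summarizes probes to 1 value per probe set. TC arrays have another median (5.34 to 5.41) than PL and NP arrays, so fractions were compared only as PL against NP. The deposited TL differed from PL minus NP by at most 0.001. Tool versions are not given in the sources used here.

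Probe sets were named from the platform list (14016), the study's gene lists (456) and r-protein catalogues (89), and 8185 stayed unnamed. Roles were given only where these sources or the RefSeq gene table held a name or description. Named members were the 12 with the highest mean WT TL, the 5 highest and 5 lowest in rpl24b, the 5 largest TC rises and falls that passed, the members with changed TL, up to 3 per functional class and 3 probe sets on each side of the 150th place, from probe sets of 1 locus. Members of the functional groups and the multi-gene probe sets were named after their values were seen. The members, lists and classes were chosen with earlier results of these data known.

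rpl24b was compared with WT (3 against 3) with limma 3.58.1 in R 4.3.3 (lmFit, eBayes) over all 22746 probe sets, with Benjamini-Hochberg adjustment. TL in rpl24b was tested against 0 in the same way. Tables were made with pandas 2.3.3 in Python 3.11.15. On simulated data with 100 probe sets changed 2-fold and 100 changed 4-fold, the TC fit recovered 76 and 98 with 15 false calls, and the TL fit recovered 53 and 92 with 4 false calls. The number of arrays limits the precision.

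Samples of the same number were grown at the same time per the labels. In TC their deviations from the group means correlated at 0.14 to 0.39, against -0.36 to -0.03 for other pairs. In TL they correlated at -0.05 to 0.03. Alternatives were the replicate block, trend and robust variance, centring, quantile normalization, other floors and leaving out each sample. Sequences and gene lengths were not used here.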

Additional observations from a re-analysis of the deposited data

How the results depend on the processing

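The list kept more members under quantile normalization than under other floors, though a higher floor removes by rule the members below it. It kept 128 of its 150 members with a floor of 6, 103 with a floor of 8, 138 with the median of the WT samples and 145 with quantile normalization, and between 133 and 136 with a WT sample left out. Restricting the array to probe sets of 1 gene kept 64, since most members have no annotation here. Of the members, 79 to 101 were among the 150 best-loaded in rpl24b over all settings tried, and 148 or 149 had TL above 0 there. The median rpl24b TL of 1.79 was 1.71 with quantile normalization and 1.87 with centred arrays. In lists chosen without 1 WT sample, an alternative added after seeing the data, 95 to 102 were among the 150 best-loaded in rpl24b.

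The mean difference between the rpl24b median and that of the held-back WT sample was -0.053 and turned to 0.0603 when each array was centred on its median, and the cause was not tested. With the replicate block, 27 members were higher and 32 were lower in TC, against 21 and 26, and 3 were lower in TL, against 4, so the pairing moved no count by more than 1.5 times. Asking for at least 2-fold left 1 higher and 6 lower in TC. Leaving out 1 sample gave 11 to 16 higher and 16 to 22 lower in TC, and 2 to 4 lower in TL, with 2 without rpl24b sample 1, rpl24b sample 2 or WT sample 3. Testing only probe sets at or above the floor gave 7 members lower in TL. That fit changed both the variance estimate and the number of tests, and their parts were not tested. The TL call of DR4 was lost in the same 3 fits, with adjusted p of 0.0672 to 0.104 in limma. The number higher in TL was 0 in every fit, and since high WT TL chose the members, nothing is read from the TL counts.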
